A study of Oryza sativa Japonica Group with 8 samples.

Results

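A group of 256 rice loci was defined by 2 features: high RNA levels in flag leaves before flowering but at least 4-fold lower levels in flag leaves after flowering, and RNA in the flower. They were drawn from a table of 31187 loci that gives for each library 1 value per locus in FPKM, a count of sequenced fragments divided by transcript length and by the mapped fragments of the library. A locus was a member when it had at least 5 FPKM in leaves before flowering, when that value was at least 4 times the value in leaves after flowering with 1 FPKM added to both, when the higher of flower buds and flowers had at least 5 FPKM, and when that flower value was above 0.2 times the leaf value, again with 1 FPKM added. The values of these 4 libraries chose the members, so the difference between the leaf libraries and the presence in flowers are descriptions and not findings. Roots before flowering, the library labelled roots after flowering, milk grains and mature seeds had no part in the choice.

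The plants were japonica rice (Oryza sativa), raised in a greenhouse, with no treatment named in the labels. Poly(A) RNA was sequenced without strand information from 8 groups of 1 library each: flower buds taken before flowering, flowers of the flowering day, flag leaves and roots, each from before and from after flowering, milk grains, and mature seeds. The leaf libraries are called early and late leaves below, and the root libraries early roots and the late root-labelled library. Each before-flowering leaf or root library mixed stages from panicle initiation to the eve of flowering, and each after-flowering one mixed later stages, so these values average over time. Without replicates no value has a replicate error and no difference could be tested; each comparison is between the named libraries, and fewer cells of a type cannot be told apart from less RNA per cell.

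The flag leaf is the last leaf a rice shoot makes before the panicle and is a main source of sugars for the filling grain; with grain filling it passes into senescence and its nutrients move to the seed. The rice flower, or spikelet, is enclosed by the lemma and palea, green leaf-like organs. At the milk stage the endosperm is still liquid and filling with starch, while the mature seed holds a formed embryo and stored RNA. The table has assembly identifiers without gene names, and 0 of these identifiers were found in RefSeq. A search by such identifiers cannot show whether a locus has a RefSeq gene. Without gene names, no function is given for any locus. For the same reason the tissues could not be checked against named marker genes.

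Of 13451 loci with at least 5 FPKM in early leaves, 369 were at least 4-fold lower in late leaves, and 256 of these also met both flower conditions. The 369 loci were 2.50% of the 14789 that reached 5 FPKM in either leaf library, and 3.88% were at least 4-fold higher in late leaves. The other 113 early leaf loci missed them: 83 had less than 5 FPKM in both flower libraries, and 30 had more but stayed at or below 0.2 times the leaf value. The members are set beside 11564 reference loci, which had at least 5 FPKM in early leaves and in a flower library but were not members. The 30 loci just mentioned belong to both comparison sets.

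The leaf limit cut through a continuous distribution. The member nearest to it had a leaf ratio of 4.004 and the nearest locus outside 3.995, with 59 members and 57 excluded loci within 10% of the limit. At the flower share the nearest values were 0.201 inside and 0.192 outside, at the leaf level 5.11 and 4.87 FPKM, and at the flower level 5.32 and 4.99 FPKM. The median leaf ratio of the members was 5.31. A lower level did not mean absence: 100 members (39.1%) still had at least 5 FPKM in late leaves.

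Listed zeros set the ratio of 17 members, which were at exactly 0 FPKM in late leaves. Of these, 12 lay in 1 span of chromosome 12 (27060107 to 27350696, in MSU Release 7 coordinates, as all positions here) that the table assigns to 40 loci. All 40 loci of the span, members or not, were listed at 0 in late leaves, in early roots and in the late root-labelled library. In early leaves 2 of the 40 were at 0, in flower buds and in flowers 1 each, and in each seed library 3. One member of the span, XLOC_019304, had 5548 FPKM in flower buds, 5490 in flowers, 4494 in early leaves, 4918 in mature seeds and 2967 in milk grains. It was the most abundant member in each of these 5 libraries and was singled out after its values were seen. Since these zeros cover the whole span in the same 3 libraries, no leaf difference is read from these 12 loci. The counts for roots, seeds, the flower order and the late root-labelled library were also computed without the 17 loci.

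**Figure D1:**
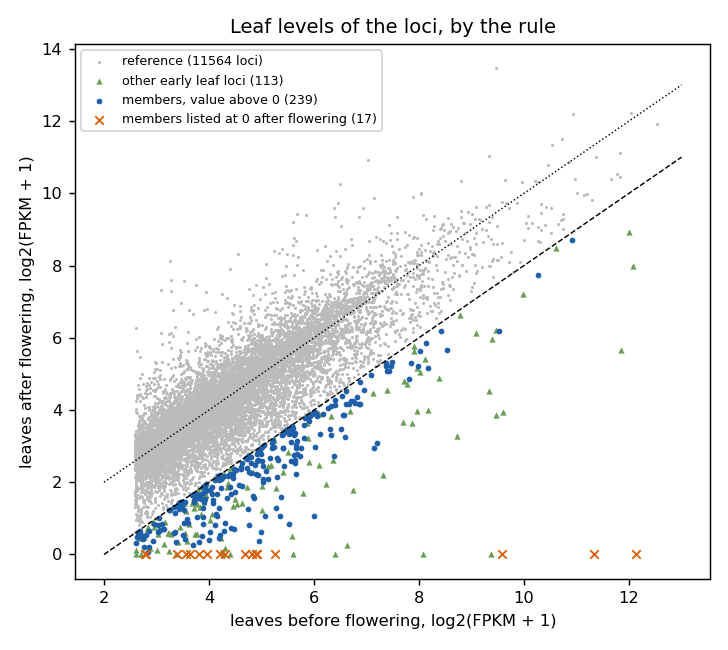
FPKM in leaves after against before flowering, both as log2(FPKM + 1), for the 11564 reference loci (grey), the 113 other early leaf loci (green) and the 256 members (blue; the 17 listed at 0 after flowering as orange crosses). The dotted line marks equal values and the dashed line the 4-fold limit of the rule; 59 members lie within 10% of the limit.

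Before flowering, the members were more abundant in leaves than the reference loci. Their median was 26.8 FPKM there, with quartiles of 13.8 and 50.3, against 17.3 FPKM for the reference; after flowering it was 3.32 FPKM against 17.3. In flower buds the medians were 19.7 FPKM for members and 15.7 for the reference, and in flowers 15.6 and 16.6. The rule set these 4 levels in part. Among all 8 libraries the highest value of a member was in early leaves for 112 members (43.8%), in early roots for 62 (24.2%), in flower buds for 37, in flowers for 25, in mature seeds for 12 and in milk grains for 8. Early roots were thus the second most frequent place of the highest value, although no root value entered the rule. For the reference loci that share was 10.9%. However, 0 members had their highest value in late leaves, which the rule excludes, and 0 in the late root-labelled library. Among reference loci 12.7% and 9.77% did. The choice of members thus raised the shares of the other libraries, and the share over all loci was not computed.

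**Figure D2:**
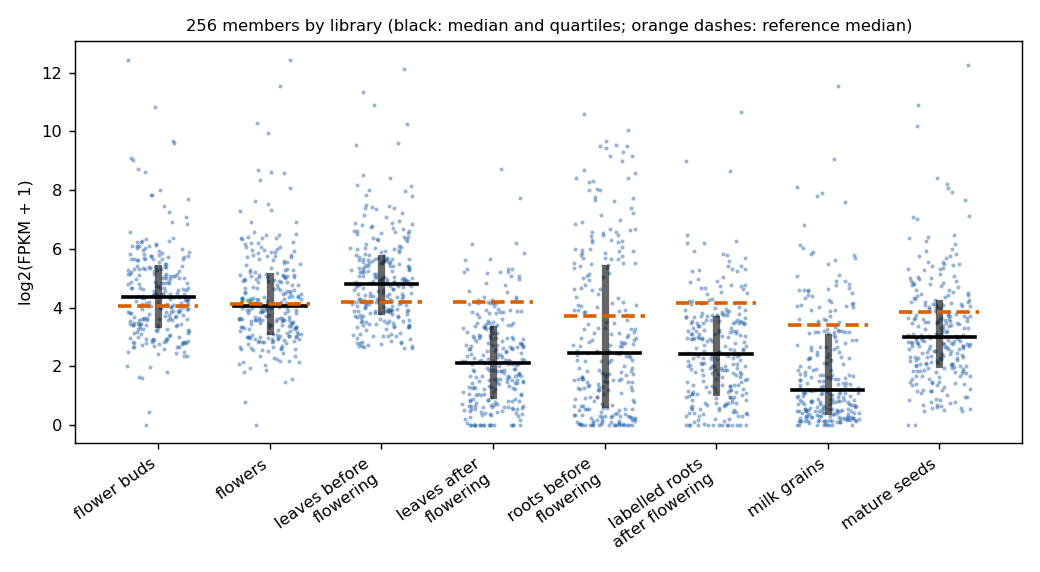
log2(FPKM + 1) of each of the 256 members (points) in the 8 libraries, with the median and quartiles of the members in black and the reference median as orange dashes. Early roots show the widest quartiles, from 0.632 to 40.1 FPKM, and milk grains the lowest member median, 1.29 FPKM.

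The leaf difference itself was largest, among members with a position of their own and values above 0 in both leaf libraries, at XLOC_039555 (chromosome 4, 19835130 to 19836892). This locus had 63.4 FPKM in early and 1.08 in late leaves, with 229 in flower buds, 185 in flowers, 0.258 in early roots, 1.01 in the late root-labelled library, 28.9 in mature seeds and 0.413 in milk grains. It was thus a flower locus with a lower leaf level, and it was under 1 FPKM in early roots and milk grains. The next was XLOC_026856 (chromosome 2, 26767373 to 26771633), with 45.2 FPKM in early and 0.793 in late leaves, 49.4 in flower buds, 9.27 in flowers, 512 in early roots, 0.614 in the late root-labelled library, 0.510 in milk grains and 3.05 in mature seeds. Its root level stood above all its other values. The 2 loci had leaf log2 ratios, after against before, of -4.95 and -4.69.

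The most abundant members in early leaves, among those with a position of their own, were 2 loci with unlike records. XLOC_000444 (chromosome 1, 5478286 to 5479884) had 2577 FPKM in early leaves, 517 in flower buds, 1245 in flowers, 50.5 in early roots, 1885 in mature seeds and 191 in milk grains. It was listed at 0 in late leaves and in the late root-labelled library, so no fold is given. XLOC_057971 (chromosome 7, 19794335 to 19794442) spans 108 bp, the shortest of the members' unshared positions, and had 1925 FPKM in early and 416 in late leaves, 419 in flower buds, 982 in flowers, 505 in the late root-labelled library, 536 in milk grains and 336 in mature seeds, with a listed 0 in early roots.

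How the flower level compared with the leaf level divided the members. The higher flower library exceeded early leaves at 101 members and did not at 155; at 45 it was more than 2 times the leaf level and at 83 less than 0.5 times it. Members with the higher flower level had a median of 15.3 FPKM in early and 1.38 in late leaves, while the others had 35.8 and 5.41; the early leaf level formed this division and the rule ties the late leaf level to it, so these leaf medians are a description. At least 5 FPKM in mature seeds was reached by 76 of the 101 (75.2%) and by 85 of the 155 (54.8%), and in early roots by 55 (54.5%) and 68 (43.9%). Of all loci 42.3% reached 5 FPKM in mature seeds and 40.8% in early roots, the latter close to the 43.9% above. The mature seed and root libraries had no part in this division. The same division was not made among other loci, so the contrast is not read as particular to the members.

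Flower buds and open flowers both held most members: 221 (86.3%) had at least 5 FPKM in both, 22 in buds alone and 13 in flowers alone. Flowers were below buds at 141 members and above at 115. Of the 11564 reference loci 5035 were below and 6528 above, and of all 31187 loci 15172 and 15464. The members' median log2 ratio, flowers against buds on log2((FPKM + 1)/(FPKM + 1)), was -0.11, against 0.06 over the reference loci. It was -0.18 without the 17 loci listed at 0 in late leaves, -0.19 without the span on chromosome 12 and -0.20 over the members with a position of their own. At the limit of 4-fold, with 5 FPKM or more in the higher library, 4 members (1.56%) were higher in flowers, where 0.730% of all 16038 loci tested were, and 7 (2.73%) were lower, where 0.436% were. Among reference loci the shares were 0.631% and 0.190%. The rule used the higher of the 2 flower libraries and not their order, and 1 of the 4 and 1 of the 7 were listed at 0 in the lower library.

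Under the same limits as for the named leaf loci and with at least 20 FPKM in the higher flower library, the 2 members furthest towards open flowers both had under 1 FPKM in early roots. XLOC_002811 (chromosome 1, 35912075 to 35913388) had 49.0 FPKM in flowers and 2.55 in buds, 23.8 in early and 4.82 in late leaves, 0.0754 in early roots, 6.12 in the late root-labelled library, 0.0934 in milk grains and 0.392 in mature seeds. XLOC_039937 (chromosome 4, 24687706 to 24689307) had 119 FPKM in flowers and 16.0 in buds, 29.7 in early and 6.27 in late leaves, 0.313 in early roots, 7.62 in the late root-labelled library, 2.31 in milk grains and 265 in mature seeds. Their log2 ratios, flowers against buds, were 3.82 and 2.82.

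Among members with a position of their own, at least 20 FPKM in the higher flower library and values above 0 in both, the 2 furthest towards buds were both highest in early roots. They were XLOC_026856, described above, with a log2 ratio of -2.30, and XLOC_029548 (chromosome 3, 10677695 to 10678947) with -2.43. The latter had 3.24 FPKM in flowers and 21.8 in buds, 6.20 in early and 0.568 in late leaves, 93.3 in early roots, 1.20 in the late root-labelled library, 7.91 in milk grains and 6.89 in mature seeds.

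Root levels of the members spread more widely than those of the reference loci. In early roots 73 members (28.5%) were below 1 FPKM, where 4.67% of reference loci and 32.7% of all loci were, and 32 (12.5%) had at least 100 FPKM, where 6.81% and 3.25% did. The low end was thus below the share of the whole table. The 73 include 14 listed zeros, 12 of them from the span on chromosome 12, and without the 17 loci listed at 0 in late leaves 60 of 239 members (25.1%) were below 1 FPKM. Between these, 60 members had 1 to 5 FPKM, 45 had 5 to 20 and 46 had 20 to 100. The share with at least 5 FPKM was 48.0% (123 members; 95% Wilson interval over loci, 42.0% to 54.2%), against 78.5% of reference loci and 40.8% of all loci, and it was 49.8% without the 17 loci listed at 0 in late leaves. The interval covers counting over loci only, which are not replicates.

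Set against early leaves, early roots were at least 4-fold higher at 29 members (11.3%) and at least 4-fold lower at 135 (52.7%). Over all 16467 loci tested the shares were 16.2% and 14.8%, and over the reference loci 4.06% and 14.8%. The leaf value of the members was chosen to be high, which favours a lower root value, and scaling by the median of ratios moved the median over all loci tested from -0.18 to 0.20. The 2 members most abundant in roots, among those with a position of their own, show both leaf and root levels. XLOC_029053 (chromosome 3, 4248829 to 4249985) had 1530 FPKM in early roots, 103 in early and 18.1 in late leaves, 34.1 in buds, 24.1 in flowers, 10.6 in the late root-labelled library, 4.63 in milk grains and 5.93 in mature seeds. XLOC_057353 (chromosome 7, 27889412 to 27892024) had 1044 FPKM in early roots, 341 in early and 72.1 in late leaves, 541 in buds, 395 in flowers, 75.5 in the late root-labelled library, 10.04 in milk grains and 135 in mature seeds. The first was mainly a root locus among these libraries, while the second was high in flowers too.

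Root level and flower order moved together among the members. Of the 123 members with at least 5 FPKM in early roots, 92 (74.8%) were lower in flowers than in buds, with a median log2 ratio of -0.56. Of the 133 members under 5 FPKM in roots, 49 (36.8%) were lower in flowers, with a median of 0.17. Among the 29 members at least 4-fold higher in roots than in early leaves, 28 were lower in flowers, with a median of -1.04. The reference loci showed the same order with a smaller spread: 47.4% of those with at least 5 FPKM in roots and 29.4% of the others were lower in flowers, with medians of 0.02 and 0.22, and 67.9% of the 470 root-high reference loci were, with a median of -0.22. These are shares over loci of the same libraries and have no test, and scaling by the median of ratios or the upper quartile gave 77.2% in both cases for members with at least 5 FPKM in early roots as deposited. For members under 5 FPKM in early roots as deposited, the same scalings gave 41.4% and 38.3%. Without the 17 loci listed at 0 in late leaves the shares for members were 74.8%, 38.3% and 96.4%. The same shares over all loci were not computed, so the members are compared with the reference only.

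**Figure D3:**
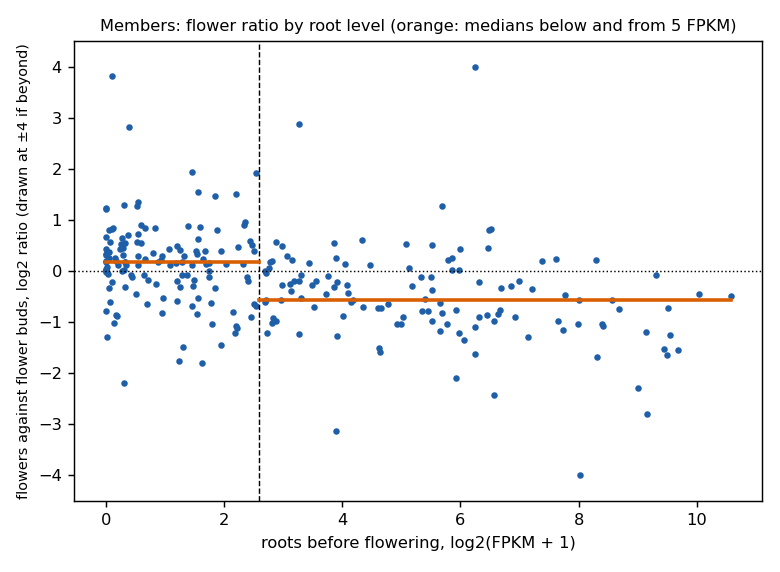
Log2 ratio of flowers against flower buds (vertical axis; 2 members beyond 4 in size are drawn at the edge) against log2(FPKM + 1) in early roots, for the 256 members. The dashed line marks 5 FPKM in roots, and the orange lines are the medians on each side, 0.17 below and -0.56 from 5 FPKM on.

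The 29 root-high members had a median of 254 FPKM in early roots, 22.6 in buds, 9.84 in flowers, 15.9 in early and 1.18 in late leaves, 2.32 in milk grains and 5.98 in mature seeds. Flower levels at these loci were thus a fraction of the root level, and milk grains held little of their RNA. The 73 members below 1 FPKM in roots had medians of 16.3 FPKM in buds, 17.9 in flowers, 29.2 in early and 3.55 in late leaves, 0.431 in milk grains and 3.99 in mature seeds.

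More members reached 5 FPKM in mature seeds than in milk grains. In milk grains 75 did so (29.3%, interval 24.1% to 35.1%), against 67.8% of reference loci and 33.4% of all 31187 loci. In mature seeds 161 did so (62.9%, interval 56.8% to 68.6%), against 85.1% of reference loci and 42.3% of all loci. The share in milk grains was thus close to that of the whole table, while the share in mature seeds lay between the whole table and the reference. Below 1 FPKM were 113 members (44.1%) in milk grains, against 9.56% of reference loci and 42.0% of all loci, and 20 (7.81%) in mature seeds, against 0.796% and 29.7%. The other 113 early leaf loci were seen less in each: 14.2% had at least 5 FPKM in milk grains, 23.0% in mature seeds and 36.3% in early roots. Members with a listed 0 numbered 7 in milk grains and 2 in mature seeds.

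**Figure D4:**
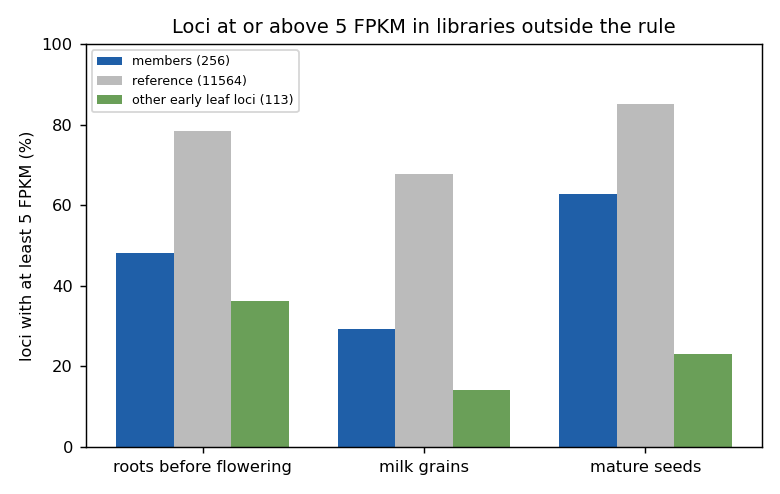
Percentage of loci with at least 5 FPKM in early roots, milk grains and mature seeds, which the rule did not use, for the 256 members, the 11564 reference loci and the 113 other early leaf loci. The members lie between the other sets in each library, at 48.0% in early roots, 29.3% in milk grains and 62.9% in mature seeds.

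Mature seeds exceeded milk grains at 207 of the 256 members, at 7696 of the 11564 reference loci and at 19738 of all 31187 loci. The median log2 ratio was 1.51, against 0.47 over the reference loci and 0.27 over all 31187 loci. In mature seeds 84 of the 256 members (32.8%) were higher by 4-fold or more, and 11 (4.30%) were at least 4-fold lower. These shares include 84 members with less than 5 FPKM in both seed libraries, which could not be called. With such loci counted in the same way, 12.1% of reference loci and 8.86% of all loci were higher, and 2.61% and 3.51% were lower. Over the 14826 loci that reached 5 FPKM in either seed library, 18.6% were higher and 7.38% lower. Without the 17 loci listed at 0 in late leaves, 80 members were higher and 11 lower. Scaling by the median of ratios moved the median of all loci tested from 0.43 to 0.09, and the members' median to 1.35. Among the 113 other early leaf loci, 9 were higher in mature seeds (7.96%) and 6 lower, with 81 below 5 FPKM in both.

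**Figure D5:**
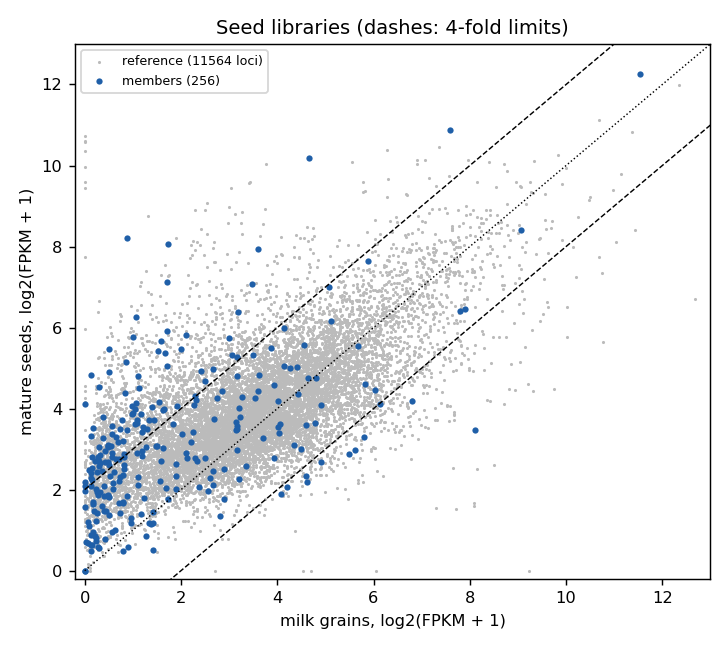
Mature seeds against milk grains, both as log2(FPKM + 1), for the 11564 reference loci (grey) and the 256 members (blue). The dotted line marks equal values and the dashed lines 4-fold differences; 84 members with at least 5 FPKM lie on or above the upper one and 11 on or below the lower one.

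The members furthest towards mature seeds, with a position of their own, were XLOC_060375 and XLOC_039937. XLOC_060375 (chromosome 8, 27875141 to 27876599) had 293 FPKM in mature seeds and 0.833 in milk grains, a log2 ratio of 7.33, and 40.3 in early and 1.99 in late leaves, 17.5 in buds, 11.5 in flowers, 17.1 in early roots and 1.21 in the late root-labelled library. XLOC_039937, given above as one of the loci furthest towards open flowers, had a seed log2 ratio of 6.33. The mature seed was the library with the highest value at both loci.

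The members furthest towards milk grains were XLOC_001842 and XLOC_014730. XLOC_001842 (chromosome 1, 23911352 to 23913299) had 10.1 FPKM in mature seeds and 274 in milk grains, a log2 ratio of -4.63, with 164 in early and 38.7 in late leaves, 38.6 in buds, 37.5 in flowers, 5.58 in early roots and 38.3 in the late root-labelled library. XLOC_014730 (chromosome 11, 4299148 to 4301783) had 6.87 FPKM in mature seeds and 48.2 in milk grains, a log2 ratio of -2.65, with 31.6 in early and 3.27 in late leaves, 6.62 in buds, 9.23 in flowers, 62.7 in early roots and 3.19 in the late root-labelled library. Milk grains held the highest value of the first locus and the second highest of the other.

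Taking early roots, milk grains and mature seeds at 5 FPKM gives 8 patterns. The most frequent among members was a value below 5 FPKM in all 3, at 63 loci (24.6%), where 7.48% of reference loci and 51.3% of the other early leaf loci had it. Roots with mature seeds but without milk grains held 49 members (19.1%, reference 14.0%), mature seeds alone 48 (18.8%, reference 6.57%), and all 3 libraries also 48 (reference 58.5%). Roots alone held 21 (8.20%, reference 4.16%). The shares of the other 3 patterns were close to those of the reference: milk grains with mature seeds held 16 (6.25%, reference 6.04%), milk grains alone 6 (2.34%, reference 1.44%), and roots with milk grains 5 (1.95%, reference 1.80%). A value of 5 FPKM or more in all 3, the commonest pattern of the reference loci, was thus found at fewer than 1 in 5 members. The patterns were not counted over all loci, so none is read as particular to the members. Of all loci 40.8% reached 5 FPKM in early roots, 33.4% in milk grains and 42.3% in mature seeds. The 12 members of the span on chromosome 12, listed at 0 in early roots, count as below 5 FPKM there.

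The late root-labelled library had a profile close to that of late leaves. Over the whole table it differed by at least 4-fold from late leaves at 44 loci and from early roots at 4887. Every value from it stands under its label with this limit. At the members it was below early leaves at 254 of 256 loci and at least 4-fold below at 165 (64.5%), where 2.10% of all 14690 loci tested were; 0 members were at least 4-fold higher, where 3.04% were. The median log2 ratio was -2.15. Without the 17 loci at 0 in late leaves, 152 of 239 (63.6%) were at least 4-fold below. The leaf value in this ratio was chosen to be high. The later value was not used in the choice, but late leaves, which this library resembles, were chosen to be at least 4-fold lower. These counts were thus in large part set by the rule. Of the 113 other early leaf loci, chosen by the same leaf limit, 86 (76.1%) were at least 4-fold below. The 2 members above early leaves in this library, named after their values were seen, were XLOC_024893 and XLOC_035172. XLOC_024893 (chromosome 2, 824849 to 827644) had 1811 FPKM in buds, 768 in early leaves, 259 in early roots, 1598 in the late root-labelled library, 24.4 in milk grains and 1163 in mature seeds, with listed zeros in flowers and in late leaves. XLOC_035172, in a span shared by 2 loci (chromosome 3, 29556655 to 29559714), had 28.6 FPKM in early leaves, 3.67 in late leaves and 36.6 in the later library.

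On the log2 scale, 242 members (94.5%) were closer in that library to late leaves than to early leaves. The rule set early and late leaves at least 4-fold apart at every member, so this count was in part set by it. To late leaves rather than early roots 218 members (85.2%) were closer. Neither share was computed over other loci, so neither is read as particular to the members. Directly against late leaves, 6 of the 256 members (2.34%) were higher by 4-fold or more and 0 lower, with 130 members below 5 FPKM in both. Of all loci, so counted, 0.0577% were higher and 0.0834% lower, and of the 13837 that reached 5 FPKM in either library 0.130% and 0.188%. The median log2 ratio was 0.17 for the members and -0.03 for the loci tested. Of these 6 members, 4 were listed at 0 in late leaves. The low values in late leaves were chosen by the rule.

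Against early roots, the late root-labelled library was at least 4-fold higher at 56 of the 256 members (21.9%) and at least 4-fold lower at 79 (30.9%), with 68 members below 5 FPKM in both. With such loci counted in the same way, the shares were 12.6% and 4.60% of reference loci and 7.35% and 8.32% of all loci. Over the 16269 loci that reached 5 FPKM in either library they were 14.1% and 16.0%. The median was -0.21 for members and 0.40 for the reference, and the members' median was -0.56 without the 17 loci listed at 0 in late leaves, -0.59 without the span on chromosome 12 and -0.70 over the members with a position of their own. Scaling by the median of ratios moved the median of all loci tested from 0.24 to -0.15 and the members' median to -0.53, with 52 members higher and 83 lower. Without the 17 loci at 0 in late leaves, 54 were higher and 77 lower as deposited. In view of the profile of the later library, these counts set a leaf-like library beside a root library, and whether any of them is a change of roots cannot be told apart from that.

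The members lay on all 12 chromosomes. As a share of all loci that met both level conditions, members included, they made up 2.58% on chromosome 1, 2.71% on chromosome 2 and between 1.43% and 2.23% on chromosomes 3 to 10. On chromosome 11 they were 4 of 533 loci (0.750%). On chromosome 12 they were 21 of 633 (3.32%), and 9 (1.45%) without the span of 40 loci listed at 0, so the high share of chromosome 12 rested on that span. Of the 237 distinct positions that held members, 52 (21.9%) had another such position within 100 kb, and 1680 of 10422 reference positions (16.1%) had one.

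Members were shorter than reference loci. The 167 members (65.2%) with a position of their own spanned a median of 2327 bp, with quartiles of 1483 and 3786, against 2764.5, 4102 and 5992.5 bp for 8055 reference loci. The other early leaf loci with a position of their own had a median of 2533 bp. Among the 29 root-high members the median was 1633 bp, over those with a position of their own, and 2867 bp for the root-high reference loci. These spans are genomic and include introns where a locus has any.

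The other 89 members shared their position with at least 1 more locus. Apart from the span on chromosome 12, 6 positions held 2 or 3 members each. One of them on chromosome 1 (30030954 to 30041476) holds 2 loci, both members, named here after their values were seen. XLOC_005668 had 225 FPKM in buds, 408 in flowers, 46.4 in early and 5.06 in late leaves, 2.003 in early roots, 10.4 in the late root-labelled library, 2.25 in milk grains and 139 in mature seeds. XLOC_002321 had 51.2, 80.7, 11.1, 0.815, 0.209, 2.39, 0.1004 and 27.4 FPKM in the same order. Both were highest in flowers, then buds, then mature seeds, and since the libraries do not record strand, reads of overlapping loci at one position cannot be told apart.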

How the data were processed

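RNA levels were measured in 8 libraries of japonica rice, 1 per group, grouped by the source label. The authors deposited 1 table of FPKM values per locus, placed, per the file headers, on MSU Release 7 of the rice genome. Per the submitters' processing notes the tools were TopHat, Cufflinks and Cuffdiff, with versions and settings not given in the sources used. The lowest row maximum was 1.00001 FPKM, so loci below that level everywhere are not analysed here. Summed FPKM lay between 569819 and 611306. Depth is unknown: among 3092 loci below 0.15 FPKM in leaves after flowering and in the library labelled roots after flowering, no common step was found, the fullest ratio bin (0.02 on the log2 scale) holding 2.13%. FPKM were not converted to counts.

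Members were found by the stated rule, and members and comparison sets were chosen with earlier results of these data known. Ratios are log2((FPKM + 1)/(FPKM + 1)), which understates changes of low loci; a locus was called at 4-fold, with a minimum of 5 FPKM in the higher library. No p-value was computed. Named loci have a position of their own: the 2 highest and 2 lowest ratios per comparison among those whose higher value was 20 FPKM or more and whose lower value was above 0 (for leaves the 2 furthest in the direction of the rule), and the 2 most abundant in leaves and in roots before flowering. Exceptions are marked where they occur. Alternatives were another pseudocount, minimum, fold, flower share and scaling (median of ratios over 13228 loci, upper quartile), and members with a position of their own. Leaving out loci listed at 0, or the span on chromosome 12, was added after seeing the data. The code of the rule was checked on simulated data with leaf differences planted above and below its limit. This was a check of the code only and bears on no result. Python 3.11.15, pandas 2.3.3, numpy 2.4.6 and scipy 1.17.1 were used.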

Additional observations from a re-analysis of the deposited data

Results flagged for a closer look

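The direction after flowering differed between the leaf pair and the pair labelled roots at 56 members: all are at least 4-fold lower in leaves after flowering by the rule, and these 56 were at least 4-fold higher in the later of the libraries labelled roots. With 1 library a group, this difference in direction was not tested, and the later library had a leaf-like profile. The 56 were 21.9% of the members, and more members, 79 (30.9%), were at least 4-fold lower in the same comparison. Of all loci, 7.35% were higher and 8.32% lower.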

How the results depend on the processing

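Of 139 values recomputed under alternatives, 113 stayed within 1.5 times the main count or within the binomial interval of the main value, and 26 did not. Some of the 113 could not move. The median log2 ratios do not depend on the minimum or on the fold of the calls. By the rule all members reach 5 FPKM in leaves before flowering and in a flower library. Dropping the minimum thus could not change the calls in comparisons with these libraries. The 113 therefore overstate how stable the values are. No paired analysis was possible because each group held 1 library. An 8-fold leaf limit left 60 members, of which 56.7% reached 5 FPKM in roots before flowering. Of these 60, 20 were higher and 1 lower in mature seeds (median log2 ratio 1.74), 2 higher and 4 lower in flowers than in buds, and 52 lower in the library labelled roots after flowering than in leaves before flowering (median -3.45). Against roots before flowering, 6 of the 60 were higher and 24 lower in that library (median -1.16). The 167 members with a position of their own included 2 that were higher in flowers. With a level of 1 FPKM the shares of members were 71.5% in roots before flowering, 55.9% in milk and 92.2% in mature grains, and with 10 FPKM 37.9%, 19.5% and 40.6%. Below 1 FPKM were 28.5%, 44.1% and 7.81% of members, against 32.7%, 42.0% and 29.7% of all loci. At 1 FPKM the members were thus near the whole table in roots and milk grains. At 10 FPKM the shares of all loci were not computed. A 2-fold limit gave 15 members higher and 42 lower in flowers, 22 lower in mature seeds, and 1 higher in the library labelled roots after flowering than in leaves before flowering. The share of all loci at 2-fold was not computed, so no lean of the members is read from these counts. The counts for the 60 members were called at 4-fold, for which the shares of all loci are given above. A pseudocount of 0.1 FPKM gave a median of 2.24 for mature seeds against milk grains and -2.45 for the library labelled roots after flowering against leaves before flowering. The 8-fold limit and the members with their own position are smaller sets, and lower or higher limits pass more or fewer loci by construction; the cause of the other moves was not tested. The unknown depth and single libraries limit every value.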
